A study of Homo sapiens with 2 samples.

Results

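The genes described here encode the subunits of the human proteasome, its activators, its inhibitor and the chaperones that assemble it. They were chosen by name, as the protein-coding genes whose symbol begins with PSMA, PSMB, PSMC, PSMD, PSME, PSMF or PSMG followed by a number. The rule found 49 of the 58735 genes in the deposited table. It takes in PSMC3IP by its letters alone, a recombination factor that binds an ATPase subunit and is not a proteasome gene, so 48 proteasome genes remain. Of the 49 genes, 42 reached a mean level of 1 FPKM (reads per unit of gene length, adjusted for the size of the library) over both libraries and are called measured.

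RNA sequencing was done on 1 library labelled control from SH-SY5Y cells, a human neuroblastoma line, and on 1 library of the same line after 24 h with TDCPP, a chlorinated organophosphate flame retardant, and titanium dioxide nanoparticles (TiO2 NPs) given as a mixture. The labels give no dose, do not say what the control received, and tag both libraries with the same word, cytotoxicity. With 1 library a group none of the differences has a replicate check or a p-value, and every interval covers counting error only, for reads without molecular identifiers. Reads on annotated genes came to 16471438 in the control and 15315572 in the exposed library. Of 14 genes that mark noradrenergic neuroblastoma cells, 3 were measured (GATA3, ISL1 and HAND2), and PHOX2A, TH, STMN2 and ELAVL4 had 0 reads in both libraries, so the defining markers of the labelled line were largely absent.

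The proteasome degrades proteins tagged with ubiquitin. Its barrel-shaped core particle is built of outer alpha rings, which gate the entrance, and inner beta rings, which carry the peptidase sites, and a regulatory particle on the end of the barrel binds ubiquitin, removes it, and unfolds and threads the substrate. The regulatory particle has a base with a ring of ATPases and a lid that holds a deubiquitinase. Subunits occur in fixed proportions in the finished particle, and in human cells the transcription factor NFE2L1 raises their genes together through antioxidant response elements when proteasome activity is short.

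Most proteasome genes were slightly lower in the exposed library. Differences are given as log2 ratios, exposed over control, after adding 1 FPKM to both values, and as read ratios, the quotient of normalised reads with nothing added. The median log2 ratio of the 42 measured genes was -0.18, against -0.05 for all 11409 measured protein-coding genes, and 32 of the 42 (76.2%) lay below the median of all genes, where 50% of all genes lie by construction. A log2 ratio below 0 was found for 37 of 42, against a background of 58.1%. After scaling to equal FPKM sums it was found for 29 of 42, against 41.3% of all measured genes. That scaling took the all-gene median from -0.05 to 0.06. A scaling multiplies all exposed values alike, so it leaves the order of genes around that median nearly as it was. Because these are bulk libraries, fewer cells of a kind and less RNA per cell cannot be told apart.

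The differences were small. No member was 1.5-fold lower, a mark that 2.16% of all measured genes passed, and none was 1.5-fold higher, against 2.53%. At 1.2-fold, 12 of 42 members (28.6%) were lower, against 19.3% of all measured genes, and 1 of 42 (2.38%) was higher, against 12.0%. Genes of high level were lower in general: of the 2224 genes with a mean of 20 FPKM or more, 29.6% were 1.2-fold lower, 9.13% were 1.2-fold higher and 63.1% lay below the median of all genes. At that level there were 28 members, of which 11 (39.3%) were 1.2-fold lower, 1 (3.57%) was higher and 22 (78.6%) lay below the median of all genes. The whole-list share of 28.6% was thus close to that of high-level genes. The counting interval of the read ratio lay below 1 for 30 of 42 members, against 36.0% of all measured genes. It lay above 1 for 1 of 42, against 21.5%. At 20 FPKM or more, where more reads make intervals narrower, it lay below 1 for 21 of 28 members (75%), against 57.8% of the 2224 genes. These calls depend on scaling. With equal FPKM sums 17 of 42 lay below 1, against 21.9% of all measured genes. Then 6 of 42 (14.3%) lay above 1, against 36% of all measured genes. Calls beyond counting error are given for the deposited scaling unless stated.

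**Figure D1:**
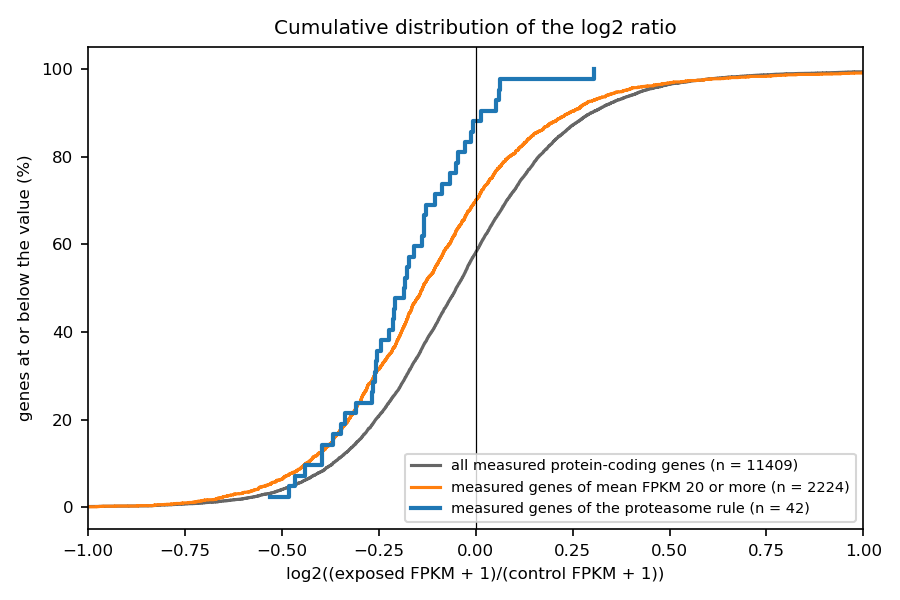
Cumulative distribution of the log2 ratio of FPKM + 1 (x axis) as the percent of genes at or below each value (y axis) for all 11409 measured protein-coding genes, the 2224 with a mean of 20 FPKM or more, and the 42 measured genes of the proteasome rule. The medians lie at -0.18 for proteasome genes, -0.14 for high-level genes and -0.05 for all genes, and 88.1% of the proteasome genes but 58.1% of all genes lie below 0.

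All 48 proteasome genes together took 0.572% of the control reads (95% Wilson interval 0.568% to 0.575%) and 0.509% of the exposed reads (0.505% to 0.513%). The share was lower in the exposed library by more than counting error. Shares use the recovered reads, whereas read ratios use the library totals behind the deposited FPKM. Those totals were 0.971 (control) and 1.03 (exposed) times the recovered reads, so every read ratio lies lower than a ratio of such shares would.

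**Figure D2:**
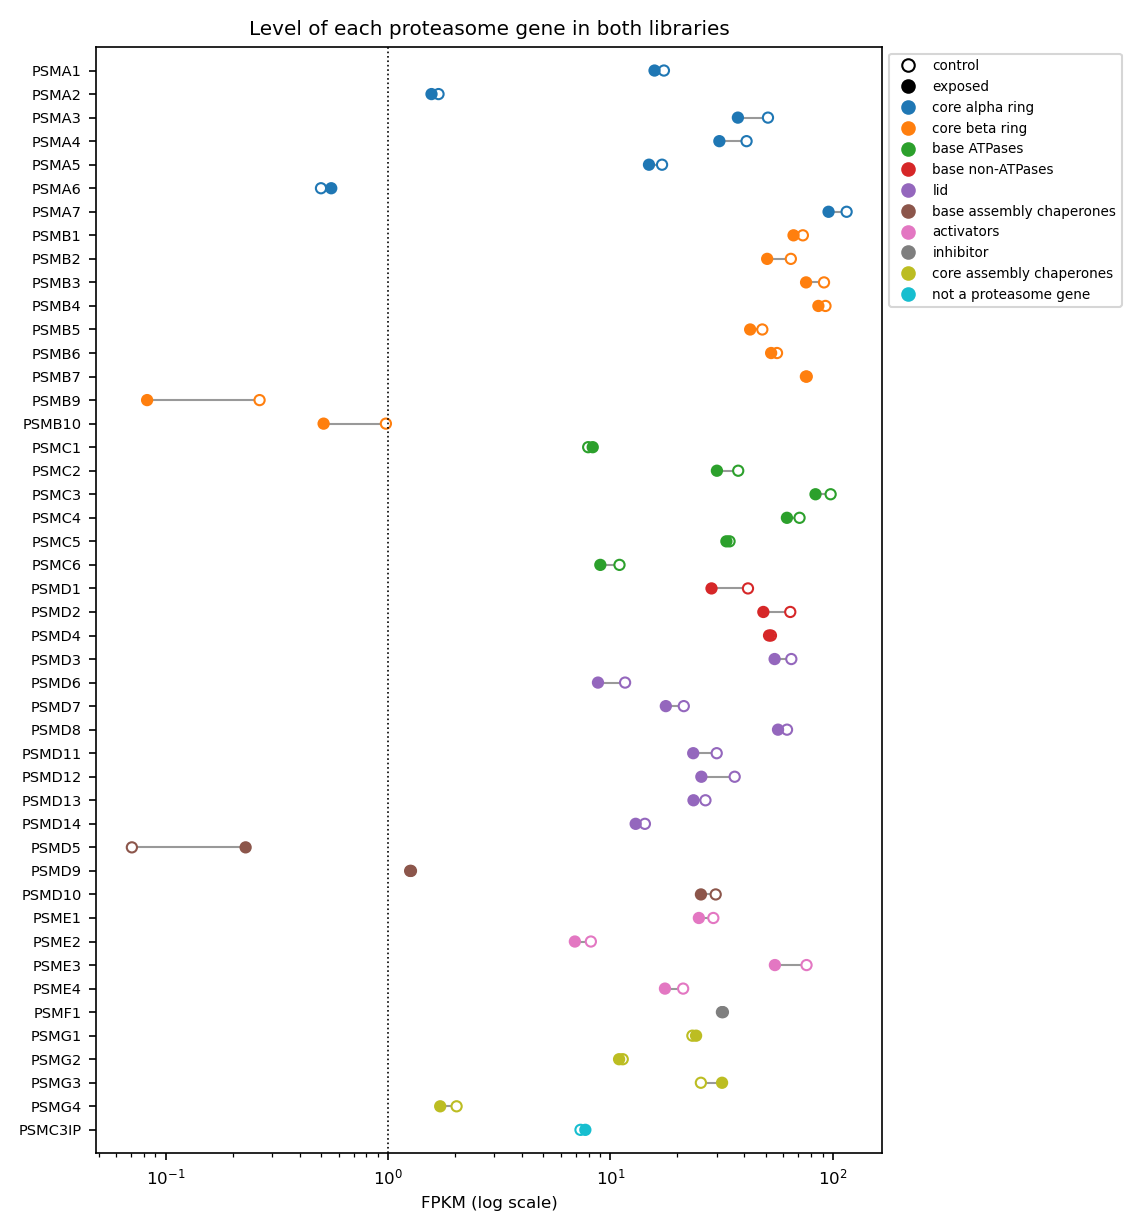
FPKM on a log scale (x axis) of each gene of the rule with reads in both libraries (y axis), coloured by role, with the control library as open and the exposed library as filled points. The dotted line marks 1 FPKM. Most subunits stood between about 10 and 115 FPKM with the filled point to the left, whereas PSMA6, PSMB9, PSMB10 and PSMD5 stood below 1 FPKM in both libraries.

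The alpha ring genes lay on the lower side, apart from PSMA2, whose log2 ratio of -0.06 turned to 0.01 with equal FPKM sums. The 6 measured of 8 had a median log2 ratio of -0.23, and their summed reads had a ratio of 0.796 (95% exact counting interval 0.775 to 0.817). At 1.2-fold, 3 of the 6 were lower, against 19.3% of all measured genes and 29.6% of those of high level. PSMA3 (ENSG00000100567, chromosome 14, 58244831 to 58272012 on GRCh38) measured 51.1 FPKM in control cells and 37.4 FPKM in exposed cells, a read ratio of 0.732 (0.689 to 0.778), the lowest of the core particle. PSMA4 (ENSG00000041357, chromosome 15, 78540405 to 78552419) stood at 41.0 and 30.9 FPKM, a read ratio of 0.755 (0.722 to 0.789). PSMA7 was the most abundant gene of the whole list per length, with 115 FPKM in control cells and 95.7 FPKM in exposed cells, a read ratio of 0.829 (0.788 to 0.873). In all 3 the exposed library was lower beyond counting error. PSMA5 went from 17.1 to 14.9 FPKM (0.874, 0.812 to 0.940) and PSMA1 from 17.4 to 15.8 FPKM (0.907, 0.825 to 0.998), whereas the interval of PSMA2, at 1.69 and 1.57 FPKM, held 1 (0.729 to 1.19). PSMA6 had only 52 and 57 reads (0.50 and 0.556 FPKM), and PSMA8, a testis-specific form, had 0 reads in both libraries, which allows up to 3 reads or 0.0990 and 0.10 FPKM.

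None of the 3 measured beta ring genes with a peptidase site was 1.2-fold lower, where 19.3% of all measured genes were. Such a count over 3 genes is too small to set them apart from that share. The 7 measured of 11 had a median log2 ratio of -0.14, and 2 were 1.2-fold lower. PSMB2 (ENSG00000126067, chromosome 1, 35599544 to 35641844) measured 64.8 FPKM in control cells and 50.7 FPKM in exposed cells, a read ratio of 0.783 (0.750 to 0.816). PSMB3 (ENSG00000277791, chromosome 17, 38752736 to 38764231) stood at 91.3 and 75.8 FPKM, a read ratio of 0.831 (0.774 to 0.892). These structural subunits, which carry no active site, were the 2 past 1.2-fold. PSMB1 and PSMB4 went from 73.3 to 66.6 FPKM (0.908, 0.859 to 0.960) and from 92.7 to 86.1 FPKM (0.929, 0.883 to 0.977). In the deposited scaling 5 of the 7 were lower beyond counting error, against 36.0% of all measured genes. With equal FPKM sums 2 of the 7, PSMB2 and PSMB3, were, against 21.9%.

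The genes of the 3 catalytic subunits had a median log2 ratio of -0.09 and a summed read ratio of 0.947 (0.909 to 0.986). That sum was taken in the deposited scaling alone. PSMB5, with the chymotrypsin-like site that bortezomib blocks, measured 48.2 FPKM in control cells and 42.5 FPKM in exposed cells, a read ratio of 0.882 (0.815 to 0.954). PSMB6, with the caspase-like site, stood at 56.1 and 52.8 FPKM (0.941, 0.869 to 1.02), and PSMB7, with the trypsin-like site, at 76.4 and 75.7 FPKM (0.991, 0.933 to 1.05). The intervals of PSMB6 and PSMB7 held 1, and those of the 3 genes overlapped one another. With FPKM scaled to equal sums the log2 ratios of PSMB4, PSMB6 and PSMB7 were 0.02, 0.04 and 0.11, so their sign depended on scaling. The interval of PSMB5 then held 1 (0.888 to 1.04), and that of PSMB7 lay above 1 (1.02 to 1.15).

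The tissue-restricted beta subunits were hardly detected. PSMB8, PSMB9 and PSMB10 replace the catalytic subunits in the interferon-induced immunoproteasome, and PSMB11 does so in the thymus. PSMB8 and PSMB11 had 0 reads in both libraries, which allows up to 0.0626 and 0.0635 FPKM for PSMB8 and 0.0889 and 0.0902 FPKM for PSMB11. PSMB9 had 13 reads in the control and 4 in the exposed library, and PSMB10 had 29 and 15. Both intervals of the read ratio held 1, at 0.0741 to 1.01 for PSMB9 and 0.261 to 1.01 for PSMB10, so no difference was detectable at this depth. Per length, the most abundant immunoproteasome gene in the control was PSMB10 at 0.978 FPKM, with 45.3% of its main transcript shared with the protein-coding gene AC040162.1 on the same strand, and the least abundant standard catalytic gene was PSMB5 at 48.2 FPKM.

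The 6 ATPases of the base, which form the unfolding ring, were all measured and had a median log2 ratio of -0.20. PSMC2 (ENSG00000161057, chromosome 7, 103344254 to 103369395) measured 37.6 FPKM in control cells and 30.1 FPKM in exposed cells, a read ratio of 0.802 (0.752 to 0.855), and was the 1 ATPase gene 1.2-fold lower by the log2 ratio. PSMC6 went from 11 to 9.01 FPKM (0.820, 0.756 to 0.890), PSMC3 from 97.8 to 83.6 FPKM (0.855, 0.814 to 0.898) and PSMC4 from 70.9 to 62.2 FPKM (0.878, 0.830 to 0.928). These 4 of 6 were lower beyond counting error, against 36.0% of all measured genes and 57.8% of high-level genes. With equal FPKM sums 3 of them, without PSMC4, were, against 21.9% of all measured genes. PSMC5, at 34.3 and 33.2 FPKM, had an interval that held 1 (0.914 to 1.02), and so had PSMC1, at 7.94 and 8.33 FPKM (0.949 to 1.16). The log2 ratio of PSMC5 was -0.05 and turned to 0.07 with equal FPKM sums.

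Of the large scaffold genes of the base, PSMD1 and PSMD2, the first had the lowest ratio of the measured members. PSMD1 (ENSG00000173692, chromosome 2, 231056864 to 231172827) measured 41.6 FPKM in control cells and 28.5 FPKM in exposed cells, a read ratio of 0.685 (0.650 to 0.723) and a log2 ratio of -0.53. PSMD2 (ENSG00000175166, chromosome 3, 184298709 to 184309054), the docking platform for ubiquitin shuttles, stood at 64.4 and 48.7 FPKM, a read ratio of 0.757 (0.727 to 0.788). PSMD4, a ubiquitin receptor that also belongs to the base, stood at 52.7 and 51.7 FPKM, and its interval held 1 (0.927 to 1.04). The interval of PSMD4 overlapped that of neither scaffold gene, so members of the same subcomplex differed by more than counting error. The log2 ratio of PSMD4 was -0.03 and turned to 0.09 with equal FPKM sums.

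All 8 lid genes were lower beyond counting error in the deposited scaling, where 36.0% of all measured genes and 57.8% of high-level genes were. With equal FPKM sums 5 of 8 were, against 21.9% of all measured genes. PSMD8, PSMD13 and PSMD14 then had intervals that held 1. The median log2 ratio of the 8 lid genes was -0.25. At 1.2-fold, 3 of them (37.5%) were lower, against 19.3% of all measured genes and 29.6% of those of high level. PSMD12 (ENSG00000197170, chromosome 17, 67337916 to 67366627) measured 36.2 FPKM in control cells and 25.6 FPKM in exposed cells, a read ratio of 0.708 (0.670 to 0.748). PSMD6 (ENSG00000163636, chromosome 3, 64010549 to 64024010) stood at 11.6 and 8.79 FPKM, a read ratio of 0.755 (0.702 to 0.813). PSMD11 (ENSG00000108671, chromosome 17, 32444261 to 32483318), a lid subunit gene known for its high level in human embryonic stem cells, stood at 30.1 and 23.6 FPKM, a read ratio of 0.784 (0.745 to 0.825). The other lid genes were closer to 1. PSMD7 stood at 0.830 (0.754 to 0.915), PSMD3 at 0.841 (0.808 to 0.876), PSMD13 at 0.884 (0.829 to 0.942), the deubiquitinase gene PSMD14 at 0.909 (0.849 to 0.973) and PSMD8 at 0.911 (0.865 to 0.959) in read ratio.

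**Figure D3:**
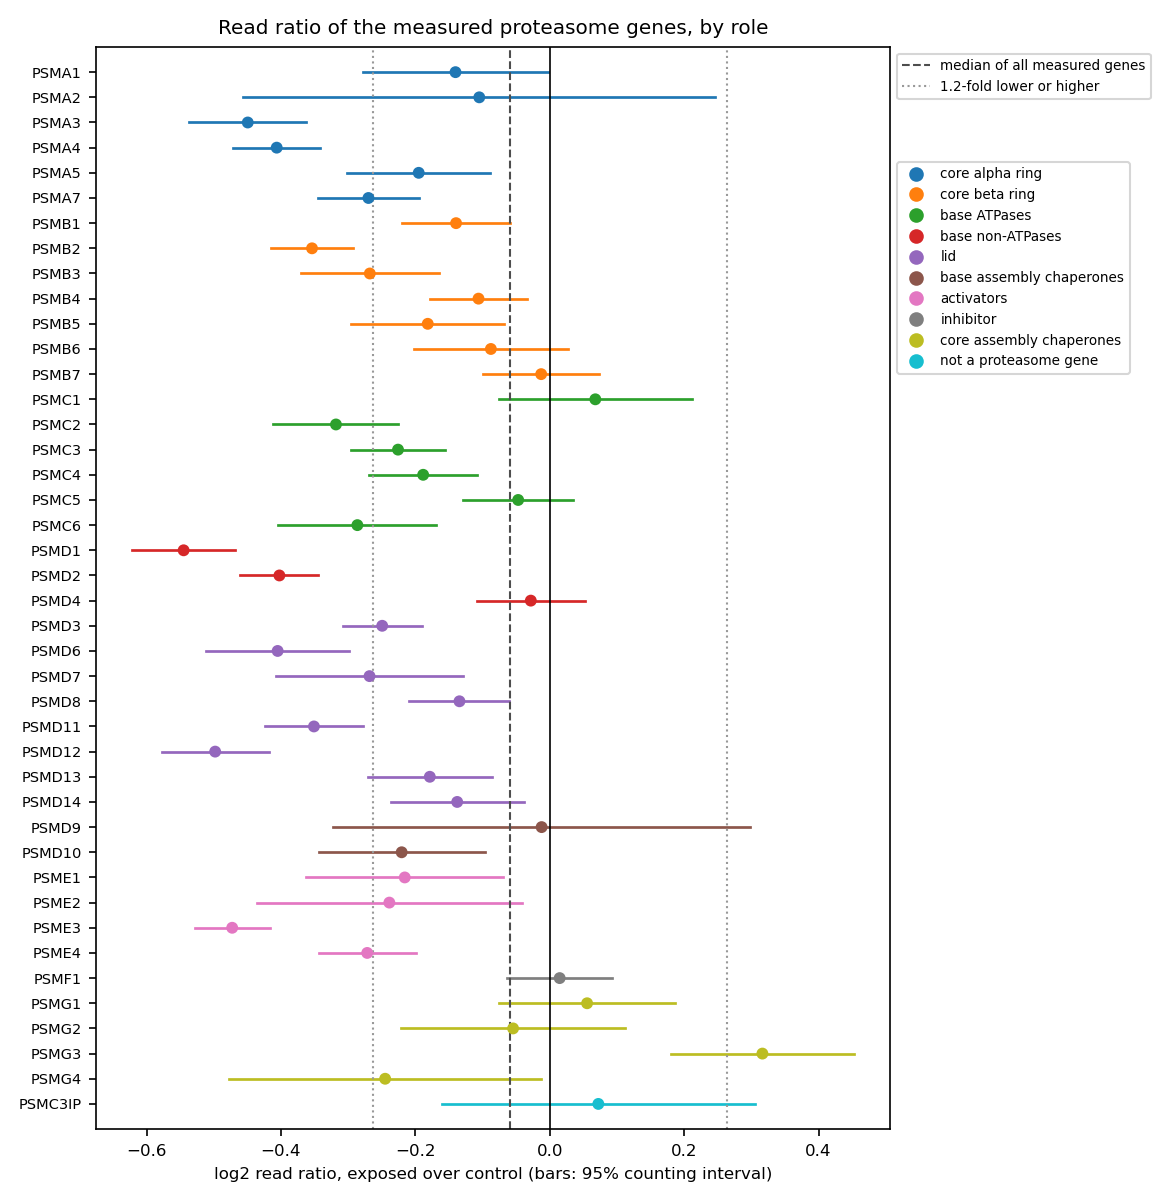
Log2 of the normalised read ratio, exposed over control (x axis), of the 42 measured genes of the rule (y axis), coloured by role, with bars for the 95% exact counting interval. The dashed line marks the median of all measured genes on this scale, -0.06, and the dotted lines mark 1.2-fold, past which 15 points lie on the lower side, since PSMC6, PSMD7 and PSME4 pass it by read ratio but not after 1 FPKM is added. Points of the alpha ring, lid and activators lie left of the dashed line, and PSMG3 lies alone to the right of the upper dotted line.

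Activators cap the core particle in place of the regulatory particle. All 4 of their genes were lower beyond counting error in the deposited scaling, where 36.0% of all measured genes and 57.8% of high-level genes were. With equal FPKM sums 2 of 4, PSME3 and PSME4, were, against 21.9% of all measured genes. PSME3 (ENSG00000131467, chromosome 17, 42824385 to 42843758), the nuclear activator PA28 gamma, measured 76.2 FPKM in control cells and 54.9 FPKM in exposed cells, a read ratio of 0.721 (0.693 to 0.749). PSME4, which encodes the activator PA200, stood at 21.2 and 17.6 FPKM, a read ratio of 0.828 (0.788 to 0.871). PSME1 and PSME2, adjacent genes on chromosome 14 for the interferon-inducible PA28 alpha and beta, had read ratios of 0.861 (0.778 to 0.953) and 0.848 (0.739 to 0.971), from 29 to 25 FPKM and from 8.17 to 6.92 FPKM. PSME3 was the only activator past 1.2-fold by the log2 ratio. PSMF1, whose product PI31 inhibits the core in vitro, stood at 31.7 and 32.1 FPKM, with an interval that held 1 (0.957 to 1.07).

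The genes of the dedicated core assembly chaperones lay on both sides of 0. PSMG3 (ENSG00000157778, chromosome 7, 1567330 to 1571005), which with PSMG4 helps to build the alpha ring, measured 25.5 FPKM in control cells and 31.8 FPKM in exposed cells, a read ratio of 1.25 (1.13 to 1.37). It was the 1 measured member 1.2-fold higher and, in the deposited scaling, the 1 measured member whose interval lay above 1. Its partner PSMG4 stood at 2.03 and 1.72 FPKM, a read ratio of 0.844 (0.718 to 0.991), and its interval held 1 in each of the other 4 scalings. PSMG1 and PSMG2, which form another pair, had intervals that held 1, at 0.949 to 1.14 and 0.858 to 1.08, from 23.4 to 24.3 FPKM and from 11.4 to 10.9 FPKM. Their median log2 ratio was 0.00 over 4 genes, and that of PSMG2 was -0.05 and turned to 0.06 with equal FPKM sums. No test of the difference between chaperones and subunits was possible with 1 library a group.

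The chaperones that assemble the base carry PSMD names. PSMD10, also known as gankyrin, stood at 29.7 and 25.5 FPKM, a read ratio of 0.858 (0.788 to 0.935). PSMD9, at 1.27 and 1.26 FPKM, had an interval that held 1 (0.800 to 1.23) and a log2 ratio of -0.01 that turned to 0.06 with equal FPKM sums. PSMD5 had 5 reads in the control and 16 in the exposed library, or 0.0705 and 0.229 FPKM, a read ratio of 3.25 with an interval from 1.14 to 11.3, and lay far below the level at which members were counted. PSMC3IP, which is no proteasome gene, stood at 7.34 and 7.71 FPKM (0.895 to 1.24).

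Genes whose products are needed in fixed proportions differed widely in FPKM. Among standard core and regulatory subunit genes the lowest, PSMA6, PSMA2 and PSMC1, shared 50% or more of the main transcript with other genes. Low level and sharing did not always go together. PSMC6, PSMD6 and PSMA5 shared 0% of the main transcript, yet in control FPKM they stood below PSMA1 and PSMD7, which shared 50% or more. PSMA6, an essential alpha subunit, stood at 0.50 FPKM and PSMA2 at 1.69 FPKM in the control, against 51.1 FPKM for PSMA3. In GENCODE release 29 the main transcript of PSMA6 (1029 bases) is overlapped over 81.0% of its length by exons of the protein-coding gene AL121594.1 on the same strand. That of PSMA2 is overlapped over 54.1%, or 52.5% counting the same strand alone, where AC010132.3 lies, and that of PSMA1 over 53.2% by AC018523.2 on the same strand. PSMC1 is overlapped over 82.1% by NRDE2 on the opposite strand and PSMD7 over 50.4% by AC009120.2, also on the opposite strand. These were the 5 of 31 standard core and regulatory subunit genes with 50% or more of the main transcript shared.

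Per length of the main transcript, in place of the merged exons of the deposited FPKM, the 5 genes stood between 3.16 and 38.2 FPKM in the control, with a median of 11 FPKM. The other 26 stood between 26.2 and 208 FPKM, with a median of 99.7 FPKM. The ranges overlapped at PSMA1 and PSMD7, and PSMA6, PSMA2 and PSMC1 lay below all of the other 26. The same-strand partners themselves held few reads: AL121594.1 had 3 and 6, and AC010132.3 and AC018523.2 had 0 reads in both. How reads in shared exons were counted is not stated in the labels, and the part of the overlap in these low levels was not tested. Without the members that share 50% or more of the main transcript, an alternative chosen after the values were seen, the median log2 ratio of the remaining 37 members was -0.21.

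**Figure D4:**
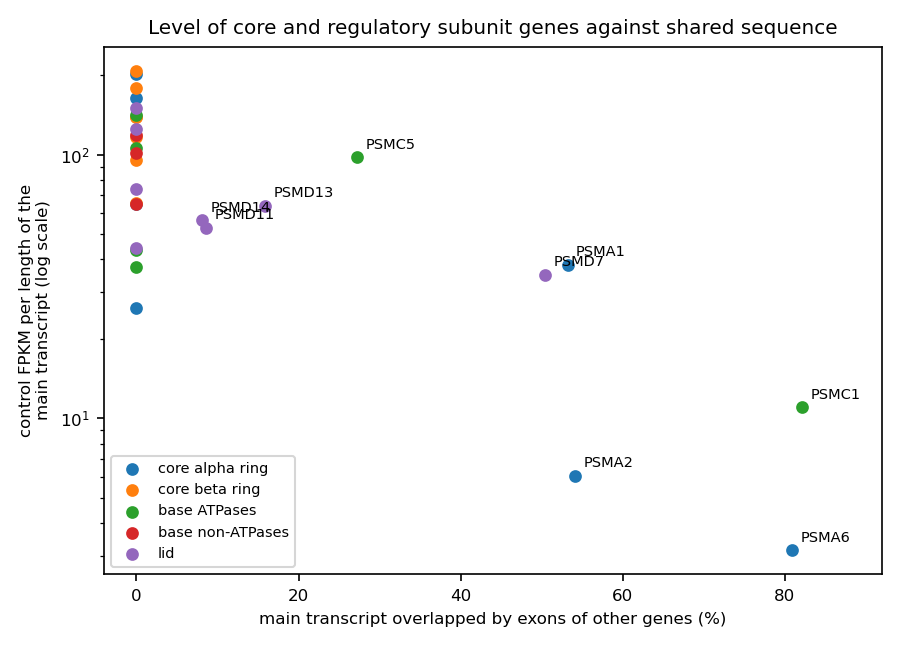
Control FPKM per length of the main transcript, on a log scale (y axis), of 31 standard core and regulatory subunit genes against the percent of the main transcript overlapped by exons of other genes on either strand (x axis), coloured by role. PSMA6 at 81.0%, PSMC1 at 82.1% and PSMA2 at 54.1% stand lowest, and the 26 genes with under 50% overlap stand at 26.2 FPKM or more.

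Promoters were read for 43 of the 49 genes from RefSeq windows on GRCh38.p14 that run from 250 bases before to 50 bases after a gene start. PSMA7, PSMB1, PSMB6, PSMB7, PSMD4 and PSMG3 were not matched. The core of the antioxidant response element, TGACNNNGC on either strand, was present in 15 of 53 windows (28.3%), against 13.3% of all 35116 windows and 14.4% of the windows of measured genes. By gene it was present in 15 of 43 members (34.9%), against 19.4% of measured genes. The following stretches of the promoter strand, 5′ to 3′, show it in members from the lid, the core, the activators and the chaperones, with the match in capitals and 10 bases on either side.
PSMD12: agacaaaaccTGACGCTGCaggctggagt
PSMA4: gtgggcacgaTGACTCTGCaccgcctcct
PSMB3: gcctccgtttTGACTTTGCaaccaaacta
PSMD3: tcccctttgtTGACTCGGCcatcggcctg
PSME1: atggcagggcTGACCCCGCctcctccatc
PSMG1: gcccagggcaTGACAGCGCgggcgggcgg

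These stretches lie at chr17:67366724-67366752 on the minus strand for PSMD12, chr15:78540650-78540678 on the plus strand for PSMA4 and chr17:38752627-38752655 on the plus strand for PSMB3. Those of PSMD3 and PSME1 lie at chr17:39980760-39980788 and chr14:24136098-24136126, both on the plus strand, and that of PSMG1 at chr21:39183616-39183644 on the minus strand. The match begins 165, 126, 104, 37, 86 and 183 bases before the start, in the order shown, and the RefSeq starts used lie 50, 381, 5, 10, 36 and 400 bases inside the genes as GENCODE bounds them. The genes shown had log2 ratios of -0.48, -0.40, -0.26, -0.25, -0.21 and 0.05 in the same order. Of all 15 members with the letters, PSMB9 and PSMD5 were not measured. The 13 measured members with the letters had a median log2 ratio of -0.21 and the 23 without them -0.18. At 1.2-fold, 4 of the 13 and 7 of the 23 were lower, against 19.3% of all measured genes. The shorter CCAAT box was present in 22 of 53 windows (41.5%), against 34.6% of all windows, and the element TGATGNAA, bound by CEBP and ATF factors, in 1 of 53 (1.89%), against 3.62% of all windows and 1.88% of those of measured genes. That 1 window belonged to PSMF1. All motifs were sought on both strands, a window may hold more than 1 of them, and a match is a run of letters and not evidence of binding.

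Of the 14 genes of the NFE2L1 circuit, which controls proteasome synthesis, 12 were measured, and their median log2 ratio was 0.08. At 1.2-fold, 4 of the 12 (33.3%) were higher, against 12.0% of all measured genes, and 2 (16.7%) were lower, against 19.3%. With equal FPKM sums 6 were higher, against 20.6% of all measured genes, and 1 was lower, against 9.88%. NFE2L1 (ENSG00000082641) itself measured 35.6 FPKM in control cells and 62.5 FPKM in exposed cells, a read ratio of 1.76 (1.68 to 1.84). This ratio ran opposite to that of most subunit genes. The gene of its small Maf partner MAFG was higher, at 17.0 and 24.0 FPKM (1.42, 1.32 to 1.52), and so was SEL1L, which serves the pathway that carries NFE2L1 out of the endoplasmic reticulum, at 10.4 and 16.8 FPKM (1.62, 1.52 to 1.72). The related factor gene NFE2L2 stood at 9.24 and 11.7 FPKM (1.27, 1.16 to 1.39). Of the other small Maf genes, MAFK stood at a read ratio of 0.907 with an interval that held 1 (0.796 to 1.03), and MAFF, with 36 and 131 reads, was below the level for measured genes, as was DDI1, with 0 and 1.

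The genes that release and activate the NFE2L1 protein went both ways. VCP, the segregase that extracts it from the membrane, measured 98.4 FPKM in control cells and 69.4 FPKM in exposed cells, a read ratio of 0.706 (0.683 to 0.729). DDI2, the protease that cuts it, stood at 10.4 and 8.04 FPKM (0.776, 0.726 to 0.830). NGLY1, which removes its sugars, stood at 3.57 and 4.20 FPKM (1.17, 1.04 to 1.33). The extractor and the protease were thus lower with the subunits, while the factor was higher.

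Among 13 proteasome parts outside the naming rule, all measured, the median log2 ratio was -0.09, or 0.03 with equal FPKM sums. At 1.2-fold, 4 (30.8%) were lower, against 19.3% of all measured genes, and 2 (15.4%) were higher, against 12.0%. With equal FPKM sums 1 was lower, against 9.88% of all measured genes, and 2 were higher, against 20.6%. POMP, the maturation factor of the core, measured 75.7 FPKM in control cells and 54.5 FPKM in exposed cells, a read ratio of 0.720 (0.669 to 0.775). The lid subunit gene SEM1 (0.763, 0.677 to 0.859), the ubiquitin ligase gene UBE3C (0.766, 0.725 to 0.809) and the deubiquitinase gene USP14 (0.784, 0.745 to 0.826) were the other 3. Higher were ZFAND2A, which encodes an arsenite-inducible partner of the proteasome, at 4.47 and 8.26 FPKM (1.85, 1.52 to 2.25), and PAAF1, which encodes a chaperone of the base ATPases, at 3.32 and 4.80 FPKM (1.45, 1.28 to 1.64). The ubiquitin receptor gene ADRM1 had an interval that held 1 (0.866 to 1.02), as had PSMD4 above.

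Of 14 ubiquitin and shuttle genes, all measured, 2 (14.3%) were 1.2-fold lower, against 19.3% of all measured genes. With equal FPKM sums 0 were, against 9.88% of all measured genes. The median log2 ratio was -0.10, or 0.01 with equal FPKM sums. The ubiquitin gene UBB stood at a read ratio of 0.931 (0.896 to 0.969). UBA1, the main ubiquitin-activating enzyme, measured 101 FPKM in control cells and 77.5 FPKM in exposed cells, a read ratio of 0.768 (0.746 to 0.791). UBQLN2, a shuttle gene mutated in a form of amyotrophic lateral sclerosis, was the other, at a read ratio of 0.793 (0.728 to 0.863).

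**Figure D5:**
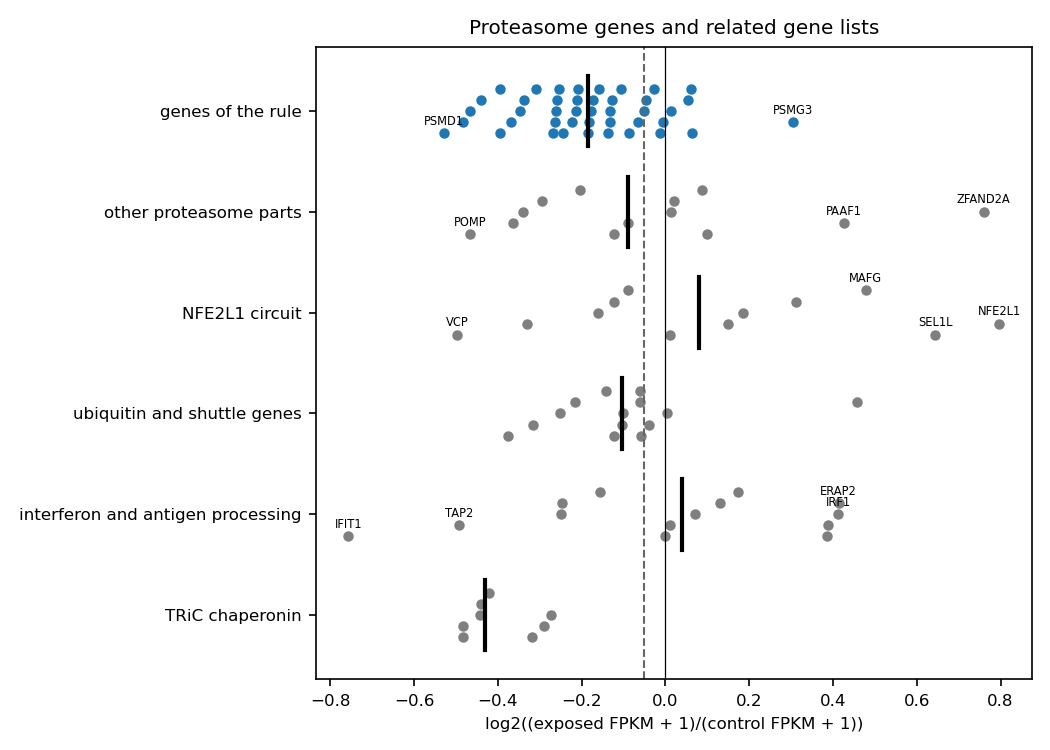
Log2 ratio of FPKM + 1 (x axis) of every measured gene of the proteasome rule and of 5 related lists (y axis, points spread vertically only for legibility), with a black bar at each list's median. The dashed line is the median of all measured genes, -0.05. The rule's genes centre at -0.18, and NFE2L1 at 0.80 and ZFAND2A at 0.76 lie farthest to the right.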

How the data were processed

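The submitters deposited 1 table of FPKM for both libraries. Builds listed in the submitters' processing notes are those of the mouse (GRCm38, mm10), but the table holds human gene identifiers, and all 49 members had the coordinates and merged-exon length of GENCODE release 29 (Ensembl release 94, GRCh38), the annotation used here for the main (APPRIS principal) transcript and for exons shared with other genes. No aligner or counting tool is named (not given in the sources used here). Libraries were made with a SMARTER mRNA kit from total RNA, per the labels' protocols.

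In each library the product of FPKM and length came in steps of 1 read, within 0.001 reads, so the reads could be recovered. The library totals behind the deposited FPKM were 0.971 and 1.03 times the sums of those reads, and no further scaling was applied. The log2 ratio used a pseudocount of 1 FPKM, which understates differences of low genes. Measured genes had a mean of at least 1 FPKM. Differences were counted at 1.2-fold and 1.5-fold. Read ratios carry exact conditional binomial (Clopper-Pearson) 95% intervals and shares of reads Wilson intervals. Both treat reads as independent and compare these libraries, not the conditions. Reads without strand information cannot separate a gene from an antisense partner, and reads of near-identical copies may be assigned to either. The recovery of reads, the intervals and the fold rule were tested on simulated reads. All genes of the rule were described, and the larger differences of the related lists were named, except that some genes of the ubiquitin list are not reported here. The members and lists were chosen with earlier results of these data known. Python 3.11.15, pandas 2.3.3 and scipy 1.17.1 were used.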

Additional observations from a re-analysis of the deposited data

How the results depend on the processing

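The medians and counts over the proteasome genes were recomputed with pseudocounts of 0.1 and 5, without the low-value filter, with a minimum mean of 5 FPKM, under 4 other scalings, and without named members. Of 75 recomputed values 68 moved by less than the typical counting error of a single member or, for counts, by at most 1.5 times. That limit for medians is not the counting error of a median over many members. Leaving out PSMB8, PSMB9 and PSMB10 could move nothing, because none of them was measured. The other 7 of the 75 values came with 2 scalings. With equal FPKM sums every exposed value was multiplied by 1.09. The median log2 ratio was then -0.074 for all measured members, -0.057 for the core and -0.10 for the regulatory particle. At 1.2-fold, 6 members in place of 12 were lower, against 9.88% of all measured genes in place of 19.3%. Below 1 lay 17 intervals in place of 30, against 21.9% of all measured genes in place of 36.0%. Above 1 lay 6 in place of 1, against 36% of all measured genes in place of 21.5%. When the mitochondrial genes and the 100 most abundant genes were kept out of the scaling, 4 intervals lay above 1 and 21 below. Of all measured genes 30.2% lay above 1 and 26.8% below under this scaling. The medians moved toward 0 by less than the limit, to -0.11 for all measured members and -0.099 for the core. Under this scaling 8 members in place of 12 were 1.2-fold lower, against 12.6% of all measured genes in place of 19.3%. The interval counts under other scalings were chosen after the values were seen. The largest count of members past 1.5-fold was 0 in the settings run. No paired analysis was possible because each group has 1 library, and none could be left out. PSMA8, PSMB8, PSMB9, PSMB10, PSMB11 and PSMD5 had at most 29 reads in a library. PSMA6 had 52 and 57, an interval from 0.750 to 1.65.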

Other observations

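Of 17 interferon-responsive and antigen-processing genes, which act with the immunoproteasome, 14 were measured, with a median log2 ratio of 0.04. At 1.2-fold, 4 of 14 (28.6%) were higher, against 12.0% of all measured genes, and 2 (14.3%) were lower, against 19.3%. With equal FPKM sums 5 were higher, against 20.6% of all measured genes, and 2 were lower, against 9.88%. The peptide transporter genes TAP1 and TAP2 stood at read ratios of 1.38 (1.19 to 1.60) and 0.657 (0.573 to 0.752), on opposite sides of 1. The peptide-trimming genes ERAP1 and ERAP2 were both higher, at 1.397 (1.24 to 1.58) and 1.398 (1.26 to 1.56). IFIT1, an interferon-induced gene, had 140 reads in the control and 52 in the exposed library, a read ratio of 0.377 (0.269 to 0.521), and the transcription factor gene IRF1 107 and 181, a read ratio of 1.72 (1.34 to 2.20).

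The 8 genes of the TRiC chaperonin, another complex built of subunits in equal number, had a median log2 ratio of -0.43 and read ratios between 0.714 and 0.827. All 8 were 1.2-fold lower, against 19.3% of all measured genes and 29.6% of those of high level. With equal FPKM sums 5 of 8 were, against 9.88% of all measured genes. The median was then -0.31, and CCT3, CCT4 and CCT7 did not pass. The proteasome genes lay at a median of -0.18, and the difference was not tested.

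The antisense gene PSMA3-AS1 measured 7.37 FPKM in control cells and 8.71 FPKM in exposed cells, while PSMA3 went from 51.1 to 37.4 FPKM. The merged exons of PSMA3 share 0% of their length with those of other genes. The 31 pseudogene entries named after members, leaving out those on the Y chromosome, held 48 and 50 reads in all, of which those of PSMC1 held 28 and 40. With these added, the read ratio of PSMC1 was 1.06 (0.963 to 1.17).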
